A study of Caenorhabditis elegans with 12 samples.

Results

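The hsp-16 genes of C. elegans encode small heat shock proteins, and 6 of them are described here, of 46904 gene identifiers counted. The members hsp-16.1, hsp-16.2, hsp-16.11, hsp-16.41, hsp-16.48 and hsp-16.49 were chosen by gene name, without a limit on their values, but with earlier results of these data known. The names hsp-16.11 and hsp-16.49 come from RefSeq. RefSeq also gives the names hsp-16.20 and hsp-16.21 to F08H9.3 and F08H9.4, which are not among the 6 and are counted below with the other small heat shock protein genes. RNA was sequenced from whole L4 stage animals of 2 strains, WT (Bristol N2) and miR-85(n4117), which carries a deletion allele of the microRNA gene mir-85 (spelled m4117 in a growth note of the labels). In each strain 3 replicates were kept at 20°C for 47 hrs and 3 were kept at 20°C for 44 hrs and then shifted to 35°C for 3 hrs. Each library is a pool of whole animals, so a change in 1 tissue cannot be told apart from a change in all of them, and fewer cells of a type cannot be told apart from less RNA per cell.

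Small heat shock proteins are chaperones built around an alpha-crystallin domain. They assemble into oligomers and hold unfolding proteins in a soluble form without using ATP, so that ATP-driven chaperones such as the HSP70 proteins can refold them. In C. elegans the hsp-16 genes are classic targets of the heat shock transcription factor HSF-1, nearly silent in unstressed animals and strongly induced by heat. They lie as divergent pairs in which 2 genes point away from a shared promoter region, and the hsp-16.2 promoter is widely used to drive heat-inducible transgenes and reporters.

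All 6 members lie on chromosome V in 2 places. The first place holds hsp-16.2 (WBGene00002016, V:1804334-1804957, minus strand) and hsp-16.41 (WBGene00002018, V:1805178-1805875, plus strand), which are separated by 220 bases. The other holds 4 genes in a row. They are hsp-16.1 (WBGene00002015, V:9087293-9087782, minus strand), hsp-16.48 (WBGene00002019, V:9088131-9088617, plus strand), hsp-16.49 (WBGene00002020, V:9089280-9089766, minus strand) and hsp-16.11 (WBGene00002017, V:9090077-9090604, plus strand). In this row hsp-16.1 and hsp-16.48 diverge across 348 bases, hsp-16.48 and hsp-16.49 converge across 662 bases, and hsp-16.49 and hsp-16.11 diverge across 310 bases. Each gene has 2 exons, with a coding length of 438 bases in hsp-16.1, hsp-16.2 and hsp-16.11 and of 432 bases in hsp-16.41, hsp-16.48 and hsp-16.49. The annotation adds 140 exon bases outside the coding part to hsp-16.2, 208 to hsp-16.41 and 38 to hsp-16.11, and none to the remaining 3 genes.

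The row of 4 genes is an inverted duplication. hsp-16.1 and hsp-16.11 are copies of each other, as are hsp-16.48 and hsp-16.49, and the Ensembl annotation used for names gives each pair of copies a single symbol. The counts were made without the option that counts reads mapping to several places, so a read that fits both copies was dropped, and the values of these 4 genes are not measures of how much RNA they made. They are given below as counts of the few reads that were placed, apart from hsp-16.2 and hsp-16.41.

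Total counts per library ranged from 23871531 to 38586076, of which 9505142 to 29652439 fell on protein-coding genes. The lowest protein-coding count belonged to WT replicate 3 at 20°C, in which ribosomal RNA took 65.5% of the counts (13.7 to 32.9% in the others). The file headers place WT replicates 2 and 3 of both temperatures in sequencing lane 8 and the other 8 libraries in lane 3. The mir-85 gene had 0 counts in all 6 miR-85(n4117) libraries and 0 to 9 in WT. The deletion also removes part of F49E12.8, which overlaps mir-85 on the opposite strand and had 78 to 220 counts in WT and 0 to 11 in the mutant. All 15 markers of muscle, intestine, neurons, hypodermis, germline, sperm and the young adult stage were detected in every library.

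At 20°C in WT the family was close to silent. hsp-16.2 had 39, 14 and 4 counts in replicates 1, 2 and 3, or 1.28, 0.390 and 0.318 CPM (counts scaled to 1000000 of the TMM-adjusted library size). hsp-16.41 had 41, 25 and 7 counts, or 1.34, 0.696 and 0.556 CPM. Both genes were highest in WT replicate 1. The 4 duplicated genes had 0 counts in all 6 libraries at 20°C, WT and mutant, where the limit that a count of 0 allows, 3 counts, amounts to 0.0635 to 0.238 CPM. All 6 genes together took 0.000116 to 0.000405% of the protein-coding counts of WT at 20°C.

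After 3 hrs at 35°C the divergent pair hsp-16.2 and hsp-16.41 was among the most strongly raised genes of the animal. hsp-16.2 reached 53074, 42909 and 58240 counts in WT, or 2046.8, 1733 and 2070.2 CPM. hsp-16.41 reached 65769, 61138 and 75098 counts, or 2536, 2469 and 2669.5 CPM. Every WT library at 35°C stood above every WT library at 20°C for both genes, which was also so for 19.5% of the genes eligible for a call. In the fit of all 12 libraries by the quasi-likelihood test of edgeR, with Benjamini-Hochberg adjustment, the log2 fold change in WT was 11.44 for hsp-16.2 (SE 1.02, adjusted p = 4.41e-05) and 11.47 for hsp-16.41 (SE 0.972, adjusted p = 3.17e-05). Among 14748 genes eligible for a call (protein-coding, mean normalized count above 10), hsp-16.41 held rank 3 and hsp-16.2 rank 4 by log2 fold change.

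**Figure D1:**
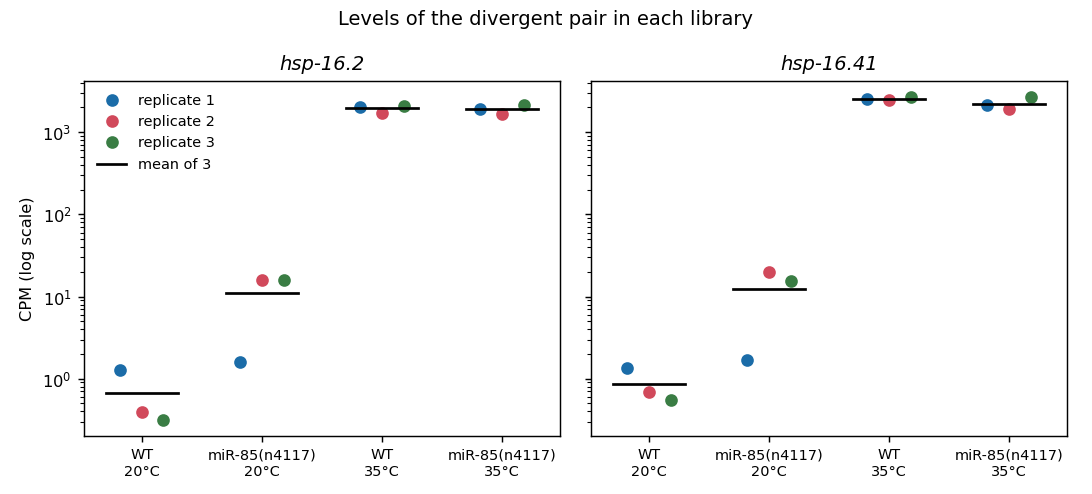
CPM of hsp-16.2 (left) and hsp-16.41 (right) on a log scale in the 12 libraries, grouped by strain and temperature, with points coloured by replicate number and black lines at the means of 3. The 35°C libraries lie between 1655 and 2669.5 CPM in both strains, and at 20°C replicates 2 and 3 of miR-85(n4117) lie between 15.7 and 20.0 CPM while replicate 1 lies near WT.

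In heat-shocked miR-85(n4117) animals the same 2 genes reached levels that overlapped those of WT. hsp-16.2 had 50216, 46608 and 53368 counts, or 1896, 1655 and 2124 CPM. hsp-16.41 had 57118, 53242 and 66717 counts, or 2157, 1890.5 and 2655 CPM. Measured from the mutant's own 20°C libraries, the log2 fold change was 7.41 for hsp-16.2 (SE 0.853, adjusted p = 2.52e-04, edgeR) and 7.49 for hsp-16.41 (SE 0.819, adjusted p = 1.73e-04), which are ranks 29 and 28. As linear folds these are 170 and 180, beside 2776 and 2844 in WT.

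The duplicated genes were detected at 35°C only, and at a small share of the counts of the first pair. hsp-16.49 had 78, 25 and 98 counts in WT and 38, 49 and 112 in miR-85(n4117). hsp-16.48 had 42, 18 and 38 counts in WT and 34, 29 and 52 in miR-85(n4117). hsp-16.11 had 11, 9 and 12 counts in WT and 18, 8 and 20 in miR-85(n4117), and hsp-16.1 had 10, 4 and 7 in WT and 6, 0 and 6 in miR-85(n4117). Together the 4 genes took 56 to 190 counts per library at 35°C, which is 0.0538 to 0.158% of the counts of all 6 members. In every 35°C library hsp-16.49 had the most counts, followed by hsp-16.48, hsp-16.11 and hsp-16.1, also per kilobase of exon. The ranges of hsp-16.49 and hsp-16.48 overlapped in both strains, and those of hsp-16.11 and hsp-16.1 overlapped in WT. The 95% Poisson interval of 7 counts, 2.81 to 14.4, shows how little these values can separate, and it covers counting error only.

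Because the 4 genes were at 0 at 20°C, their mean CPM at 35°C was set against that of 3 counts in each 20°C library. These folds allow for counting error at 20°C only. By this measure hsp-16.49 was 17.9-fold higher after heat shock in WT and 32.6-fold higher in miR-85(n4117). Its means at 35°C were 2.50 CPM in WT and 2.54 CPM in miR-85(n4117), whereas 3 counts at 20°C averaged 0.140 and 0.0781 CPM. The folds thus depend on depth at 20°C and cannot be compared between the strains. For hsp-16.48 the folds were 8.80 in WT and 18.7 in miR-85(n4117), for hsp-16.11 they were 2.89 and 7.51, and for hsp-16.1 they were 1.89 and 1.99. The last of these rests on 6, 0 and 6 counts at 35°C, so hsp-16.1 was not shown to rise in every mutant library. Calls were limited to protein-coding genes whose mean normalized count was above 10, whose log2 fold change was 1 or more in size and whose adjusted p was below 0.05. In both strains 4 of the 6 members, of 5 that passed the filter on low counts, were called higher after heat shock, hsp-16.2, hsp-16.41, hsp-16.48 and hsp-16.49, where 6.11% of the genes that could be called were called higher in WT and 4.43% in miR-85(n4117). hsp-16.11 passed the p limit in both strains (adjusted p = 0.00520 and 0.00213, edgeR) but not the limit on the mean, and hsp-16.1 did not pass the filter. The 3 duplicated genes that passed it did so only through their 35°C libraries and so had to differ between the temperatures. In WT, where the replicate numbers were taken to pair the libraries, an edgeR fit with the replicate number as a block gave an adjusted p of 0.0520 for hsp-16.11.

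**Figure D2:**
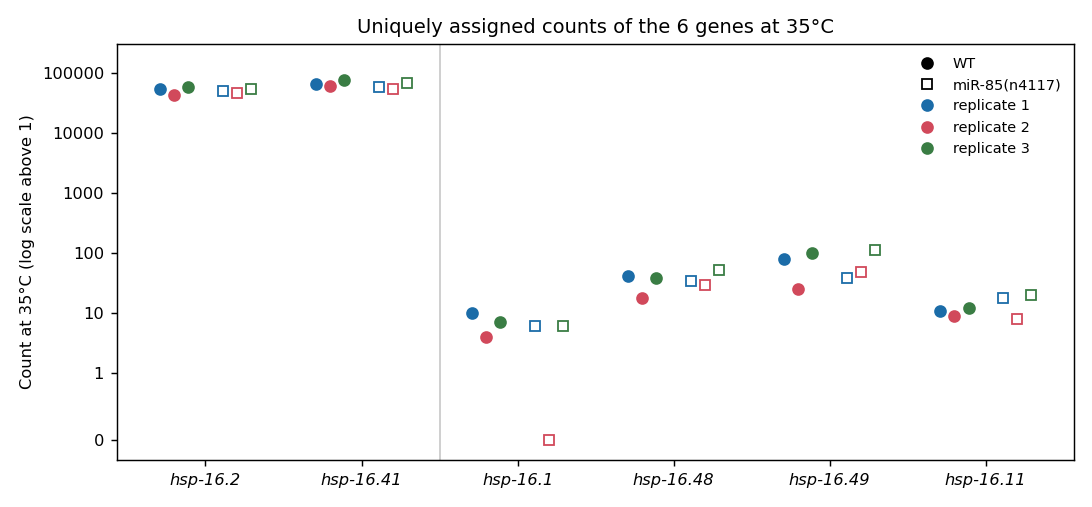
Counts of the 6 genes in the 6 libraries at 35°C, with filled circles for WT and open squares for miR-85(n4117), coloured by replicate number, on an axis that is logarithmic above 1. hsp-16.2 and hsp-16.41 lie between 42909 and 75098 counts, and the 4 duplicated genes, whose shared reads were not counted, lie between 0 and 112.

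Within the first pair the divergent partners kept close to one another. Levels of the 2 genes can be compared only per length, and per kilobase of annotated exon hsp-16.41 averaged 3998 CPM per kb ± 159 and hsp-16.2 3374 ± 326 in WT at 35°C (SD, n = 3). Their ranges did not overlap in WT. In miR-85(n4117) at 35°C the averages were 3491 ± 606 for hsp-16.41 and 3273 ± 406 for hsp-16.2, and the ranges overlapped. The ratio of the counts of hsp-16.41 to those of hsp-16.2 was 1.24 to 1.42 in WT at 35°C and 1.14 to 1.25 in miR-85(n4117) at 35°C. At 20°C it was 1.05, 1.79 and 1.75 in WT, where the 2 higher ratios rest on 39 and 11 counts in all, and 1.07, 1.25 and 0.998 in miR-85(n4117). The ranges of the strains overlapped at both temperatures. At 35°C, where the replicate numbers were taken to pair the strains, the ratio was lower in miR-85(n4117) in all 3 pairs (1.14 against 1.24, 1.14 against 1.42 and 1.25 against 1.29). This difference in the ratio was not tested.

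At 20°C the strains did not differ in all their replicates alike. In miR-85(n4117), hsp-16.2 had 75, 537 and 580 counts in replicates 1, 2 and 3, or 1.59, 16.06 and 15.7 CPM. hsp-16.41 had 80, 669 and 579 counts, or 1.69, 20.0 and 15.7 CPM. Replicates 2 and 3 stood far above every WT library, whereas replicate 1 stood close to WT replicate 1, and its counting interval for hsp-16.2, 1.25 to 1.99 CPM, overlapped that of WT replicate 1, 0.908 to 1.75 CPM. The groups did not overlap for either gene, which was also so, in this direction, for 9.08% of the genes eligible for a call.

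The log2 difference of miR-85(n4117) from WT at 20°C was 3.97 for hsp-16.2 (SE 0.966, 95% interval 1.68 to 6.26) and 3.78 for hsp-16.41 (SE 0.911, 95% interval 1.62 to 5.94), which are ranks 2 and 3 of 14418 genes. Neither passed the test of edgeR over all genes, with an adjusted p of 0.307 for both (unadjusted p = 0.00464 and 0.00442, edgeR). Of the 6 members only these 2 passed the filter on low counts and could be called. Thus 0 of 2 were called, where 0.0139% of genes were called higher. At an unadjusted p under 0.05, 4.52% of the genes were higher in the mutant, and by rank of p hsp-16.41 was 205 and hsp-16.2 was 214. DESeq2 called both, with adjusted p-values of 0.0114 for hsp-16.41 and 0.0146 for hsp-16.2, where it called 0.41% of genes higher.

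In edgeR the call of hsp-16.41 depended on miR-85(n4117) replicate 1. Without this library the log2 difference was 4.30 for hsp-16.41 (SE 0.332, adjusted p = 0.0379, edgeR), which is a call, and 4.48 for hsp-16.2 (adjusted p = 0.0687), which is not. Among the libraries of lane 3 only, where WT has replicate 1 alone and its spread is taken from the mutant, the differences were 3.10 and 3.20 for hsp-16.2 and hsp-16.41 with an adjusted p of 0.792 for both.

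**Figure D3:**
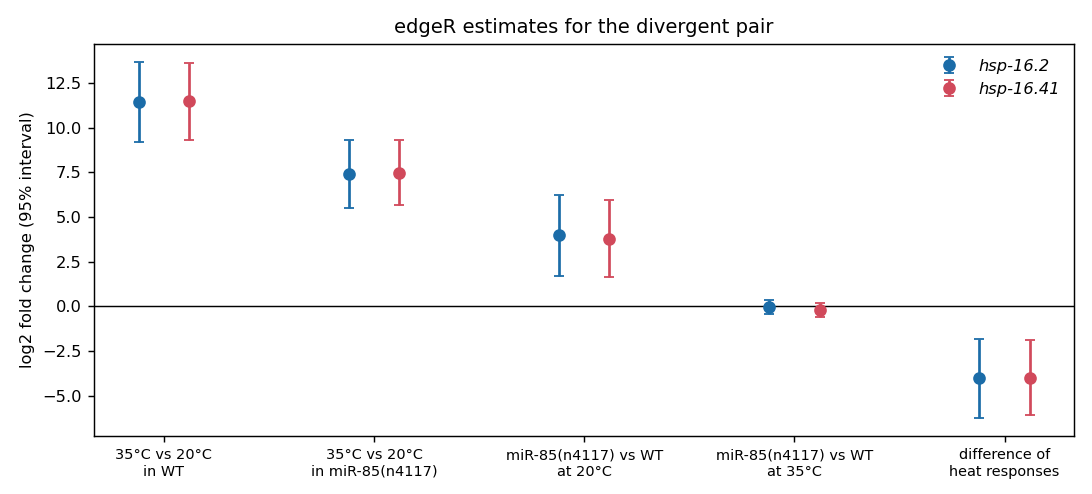
Log2 fold changes of hsp-16.2 and hsp-16.41 from edgeR with 95% intervals, for heat shock in each strain, for miR-85(n4117) against WT at each temperature, and for the difference between the heat responses of the strains. The estimates at 35°C are -0.04 and -0.20, whereas those at 20°C are 3.97 and 3.78 with wide intervals.

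The libraries that were high in hsp-16 at 20°C also differed in genes that mark the passage from L4 to adult. vit-2 and vit-5, which encode yolk proteins made by the adult intestine, and col-19, an adult cuticle collagen gene, summed to 362, 354 and 460 CPM in WT and to 498, 78.4 and 31.6 CPM in miR-85(n4117) replicates 1, 2 and 3. Replicates 2 and 3 of the mutant were thus the lowest of the 6 libraries in these 3 stage markers and the highest in hsp-16.2 and hsp-16.41. Replicate 1 was the highest of the 6 in the sum of the stage markers, though not in col-19 (277 CPM, beside up to 285 in WT). All 15 markers summed to 3719 to 5406 CPM in WT and 3555 to 5089 CPM in miR-85(n4117). The muscle gene unc-54 alone had 2237 to 3613 CPM in WT and 2160 to 3138 CPM in miR-85(n4117), so this sum says little of the other tissues. At 35°C the 3 stage markers summed to 1437 to 5543 CPM in WT and 243 to 3379 CPM in miR-85(n4117), with hsp-16.2 within 1655 to 2124 CPM throughout. None of the 3 genes passed the test between the strains at 20°C (adjusted p = 0.727 to 0.881, edgeR). The part of developmental stage in the difference at 20°C was not tested.

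At 35°C no member differed between the strains beyond the spread of the replicates. The log2 difference was -0.04 for hsp-16.2 (SE 0.161, 95% interval -0.43 to 0.34) and -0.20 for hsp-16.41 (SE 0.168, 95% interval -0.59 to 0.20), with adjusted p-values of 0.997 and 0.995 in edgeR. Both intervals, from the fit of the 6 libraries at 35°C, lie within a 2-fold change in either direction. In the fit of all 12 libraries the SEs were 0.643 and 0.616, too wide for that limit. For the duplicated genes the intervals were wider. They ran from -0.76 to 1.24 for hsp-16.48, from -1.42 to 1.46 for hsp-16.49 and from -0.55 to 1.598 for hsp-16.11. hsp-16.41 was lower in miR-85(n4117) in all 3 replicate pairs, and with the replicate number as a block its difference was -0.21 (adjusted p = 0.79, edgeR). The share of all genes lower in all 3 pairs was not computed, so this order says little of hsp-16.41 itself. The ranges of the strains overlapped for all 6 genes. Of the members 0 were called by edgeR, where 5 passed the filter, and 0 by DESeq2. edgeR called 0.00687% of genes higher and 0.0137% lower, and DESeq2 0.0205% and 0.0546%. At an unadjusted p under 0.05 in edgeR there were 0 members, where 2.29% of genes passed.

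The difference between the heat responses of the strains was tested as an interaction, which shares its libraries with the comparisons above. For hsp-16.2 and hsp-16.41 the strains differed by log2 -0.04 and -0.20 at 35°C and by 3.97 and 3.78 at 20°C. Their interaction is therefore mostly the difference at 20°C with its sign reversed, and not separate evidence. The log2 fold change upon heat shock was smaller in miR-85(n4117) than in WT by 4.03 for hsp-16.2 (difference -4.03, SE 1.00) and by 3.98 for hsp-16.41 (difference -3.98, SE 0.948). Counted from the highest value they held ranks 14747 and 14746 of 14748 genes. The adjusted p was 1.00 for both in edgeR (unadjusted p = 0.00216 and 0.00159), which called 0 genes for this term (0% in each direction, and 2.15% of genes below 0.05 before adjustment). DESeq2 gave adjusted p-values of 0.0733 and 0.0569, and called 0 members and 1 gene in all (0.00682% higher). Without miR-85(n4117) replicate 1 at 20°C edgeR called both, at -4.54 (adjusted p = 0.0349) and -4.51 (adjusted p = 0.0107).

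hsp-70, the inducible HSP70 chaperone gene and the gene outside the 6 with the profile nearest to hsp-16.2, gives a scale within each library. The counts of hsp-16.2 and hsp-16.41 together, divided by those of hsp-70, were 0.325, 0.305 and 0.355 in WT at 20°C. In miR-85(n4117) at 20°C the ratio was 0.291 in replicate 1, just below WT, and 0.632 and 0.564 in replicates 2 and 3. After heat shock it was 0.849, 1.02 and 0.798 in WT and 0.871, 0.854 and 0.869 in miR-85(n4117). The hsp-16 pair thus rose by a larger factor than hsp-70 upon heat shock in both strains, and in the 2 mutant libraries that were high at 20°C it stood between the WT ratios at 20°C and those at 35°C.

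**Figure D4:**
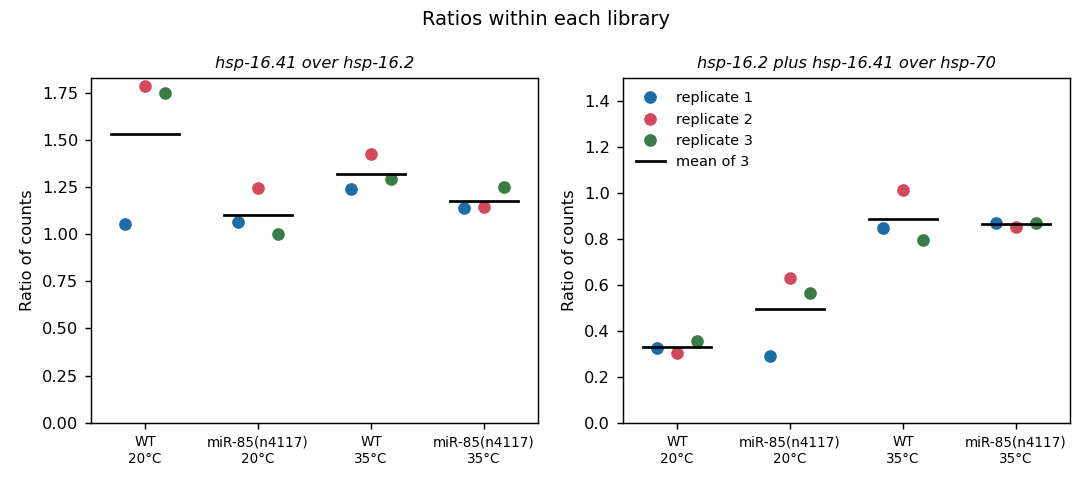
Ratios of counts within each library, which do not depend on the scaling between libraries, with points coloured by replicate number and black lines at the means of 3. Left, hsp-16.41 over hsp-16.2, from 0.998 to 1.79. Right, both genes together over hsp-70, at 0.291 to 0.355 in WT and in miR-85(n4117) replicate 1 at 20°C, 0.564 and 0.632 in the other mutant libraries at 20°C, and 0.798 to 1.02 at 35°C.

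By the root-mean-square difference of log2(CPM + 0.1) centred on each gene's mean over the 12 libraries, the 5 protein-coding genes nearest to hsp-16.2 outside the family were hsp-70 (0.611), F44E5.5 (0.715), F44E5.4 (0.739), R11A5.3 (0.789) and ZC21.10 (1.45). The partner hsp-16.41 stood at 0.214 and the median of the 15287 genes at 5.11. F44E5.4 and F44E5.5 are 2 further HSP70 family genes. They had 1 to 52 and 0 to 35 counts in WT at 20°C, F44E5.5 first, and 80 to 390 in miR-85(n4117), with replicate 1 the lowest of the mutant for both. R11A5.3 had 1 to 6 counts in WT at 20°C, 18 to 44 in the mutant, and 13629 to 16097 counts in all 35°C libraries. ZC21.10 had 0 to 3 counts in every 20°C library, mutant replicates 2 and 3 included, and 1418 to 2649 at 35°C.

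A list of 18 genes stood for the heat shock response at large. It holds HSF-1 and its regulators, cytosolic HSP70 and HSP90 chaperones and their cochaperones, and also aip-1 and stip-1, which are none of these. Of the 18, edgeR called 8 higher and 1 lower in WT and 7 higher and 0 lower in miR-85(n4117). Of the eligible genes 6.11% and 4.43% were called higher. The median log2 fold change of the list was 0.81 in WT and 0.59 in the mutant, beside 0.04 and 0.05 over all genes tested. The largest changes in WT were those of F44E5.4 (10.09), hsp-70 (10.08) and F44E5.5 (9.92), each below that of hsp-16.2. Between the strains edgeR called 0 of the 18 at either temperature, with 5 at an unadjusted p under 0.05 at 20°C (9.5% of eligible genes) and 1 at 35°C (2.29%). DESeq2 called hsp-70 at 20°C (log2 difference 3.13, adjusted p = 6.09e-05), for which edgeR gave 3.10 (SE 0.703, adjusted p = 0.285).

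Of 11 other small heat shock protein genes, F08H9.3 and F08H9.4 included, edgeR called 5 higher upon heat shock in WT and 4 in miR-85(n4117), where 6.11% and 4.43% of the eligible genes were called higher. Their median log2 fold change was 1.51 and 1.14. The largest rises in WT were those of hsp-12.6 (7.69, SE 0.561), F08H9.4 (6.26, SE 0.837) and hsp-12.3 (4.92, SE 0.506), all below those of hsp-16.2 and hsp-16.41. The same 3 led in the mutant, at 5.69, 3.28 and 3.27. None of the 8 that could be tested was called between the strains at 20°C, and none of 11 at 35°C, by edgeR or DESeq2, with 1 gene at an unadjusted p under 0.05 at each temperature in edgeR, which 9.5% of eligible genes had at 20°C and 2.29% at 35°C.

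Annotated genes just downstream of the hsp-16 loci were also raised. srt-42, a predicted chemoreceptor gene on the plus strand that begins 1584 bases beyond the end of hsp-16.41 (V:1807460-1809582), had 7, 6 and 1 counts in WT at 20°C and 4549, 1575 and 4186 at 35°C. In miR-85(n4117) it had 4, 2 and 5 counts at 20°C and 2878, 5604 and 2285 at 35°C. Its log2 fold change was 9.50 in WT (SE 0.594, adjusted p = 4.24e-06, edgeR) and 10.41 in miR-85(n4117) (SE 0.612, adjusted p = 2.11e-06). In mutant replicates 2 and 3 at 20°C, in which hsp-16.41 was raised, srt-42 was at 0.0598 and 0.135 CPM, neither of them above the WT range of 0.0795 to 0.229.

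On the other side srt-41, of the same gene family, lies 1190 bases downstream of hsp-16.2 on the same minus strand (V:1799506-1803143). At 20°C it had 0 counts in all 3 WT libraries and 4, 0 and 2 in those of the mutant. At 35°C it had 506, 122 and 435 counts in WT and 297, 463 and 232 in miR-85(n4117). By its mean CPM at 35°C against 3 counts in each 20°C library, it was 94.97-fold higher after heat shock in WT. At the second place T27E4.1, 1740 bases downstream of hsp-16.11 on its strand (V:9092345-9094357), had 28, 23 and 11 counts in WT and 63, 32 and 45 in the mutant at 20°C. At 35°C it had 1350, 555 and 1353 counts in WT and 841, 1024 and 900 in the mutant, a log2 fold change of 5.67 in WT (SE 0.342, adjusted p = 2.28e-06, edgeR) and 4.88 in miR-85(n4117) (SE 0.319, adjusted p = 3.27e-06).

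Of the non-coding genes annotated beside the duplicated copies, some were raised at 35°C and some had no counts. T27E4.15, a non-coding RNA 846 bases downstream of hsp-16.11 on its strand, had 0 counts in every 20°C library and 18 to 54 at 35°C. T27E4.22 and T27E4.12, snRNA genes that lie over the same bases on the opposite strand, had 0 counts in all 12 libraries. They overlap each other almost fully, and reads that overlap several genes were not counted. Their 0 counts therefore cannot show whether this strand was transcribed. The snRNA genes T27E4.11 and T27E4.10 lie 271 bases downstream of hsp-16.1 and hsp-16.11, on their strands, and went from 1 to 9 and 0 to 5 counts at 20°C to 22 to 72 and 9 to 18 counts at 35°C. In CPM T27E4.10 overlapped between the temperatures, with 0.397 in WT replicate 3 at 20°C and 0.320 in the lowest library at 35°C. Whether reads shared by these 2 genes were dropped was not tested.

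Over 20 kb on each side of both places, a width chosen after values had been seen, 16 annotated genes lay downstream on the strand of the nearest hsp-16 gene and 17 on the opposite strand. The 17 include T27E4.22 and T27E4.12, whose shared reads were not counted. Of the first 16, 7 were higher in all 6 libraries at 35°C than in all 6 at 20°C, all of them within 4637 bases. Of the 17 on the opposite strand 1 was, Y46H3A.5 at 5469 bases, with 0 to 5 counts at 20°C and 38 to 430 at 35°C. Of all 46904 gene identifiers 5.84% were. Among the libraries at 35°C, srt-41, srt-42, T27E4.1 and T27E4.11 were lowest in WT replicate 2, which was also the lowest WT library for all 6 hsp-16 genes. In miR-85(n4117) the order of these genes was another. Replicate 2 was the lowest mutant library for hsp-16.2 and hsp-16.41 at 35°C and the highest for srt-41, srt-42, T27E4.1 and T27E4.11. Of the other raised downstream genes, T27E4.16 was also highest in mutant replicate 2. T27E4.15 was highest in mutant replicate 3, as hsp-16.2 and hsp-16.41 were, and T27E4.19 in mutant replicate 1.

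**Figure D5:**
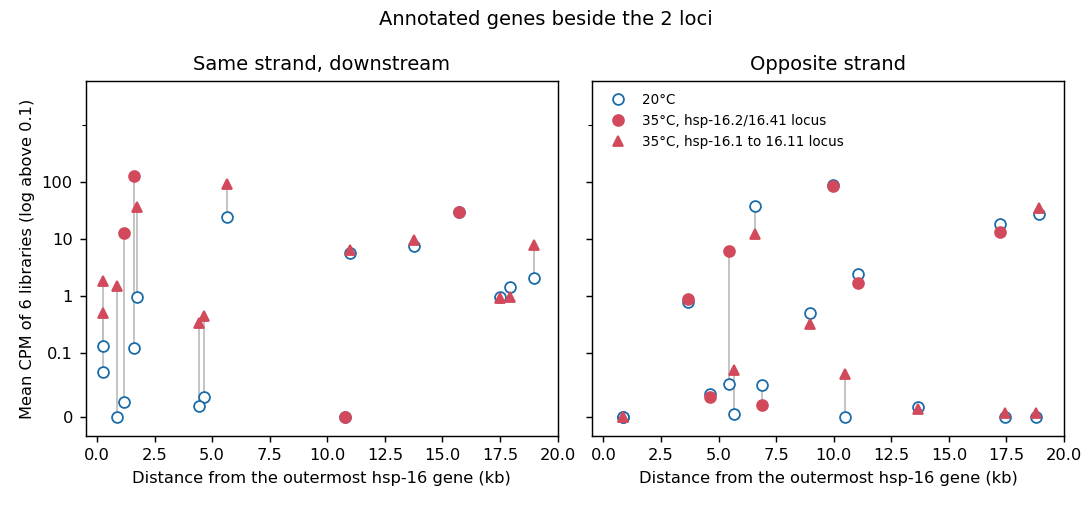
Mean CPM at 20°C (open circles) and 35°C (filled symbols, 6 libraries each, both strains together) of the 33 annotated genes within 20 kb of the hsp-16 loci, against their distance from the outermost hsp-16 gene in kb. On the strand of that gene (left) the genes nearest to it are raised at 35°C, from 0.126 to 131 CPM for srt-42. On the opposite strand (right) Y46H3A.5 alone has its 6 libraries at 35°C above all 6 at 20°C.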

How the data were processed

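RNA was measured in 12 libraries of L4 animals, 3 independent replicates in each of 4 groups. Per the paper's methods and the labels, the authors prepared stranded total RNA libraries (75-nt reads), aligned them with STAR to ce11 and counted reads per gene. The deposited values are raw counts per gene, made with featureCounts 1.6.5 on Ensembl release 100 with strand setting 2 and without counting multi-mapping reads or reads that overlap several genes. Names and WBcel235 positions were looked up in Ensembl release 115, where 46817 of 46904 identifiers were found, and for hsp-16.11 and hsp-16.49 from RefSeq by sequence name. No annotated gene overlaps a member. No sequences were used here.

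Counts were filtered with filterByExpr, scaled with TMM and tested with edgeR 4.0.16 (R 4.3.3, limma 3.58.1) over all genes, the strains within the 6 libraries of a temperature, and heat shock and the interaction in all 12. The SE was taken as the size of the log2 fold change over the root of the F statistic, and 95% intervals use the test's degrees of freedom. Procedures were tested on simulated counts. The 6 members and the gene lists were chosen with earlier results of these data known, and all members are named. Of each other list at most 3 genes are named for the size of their change, with the 5 genes most like hsp-16.2 and the neighbours within 2 kb. The alternatives were DESeq2 1.42.0, RLE scaling, no filter, a replicate block, the lane as a covariate, protein-coding genes only, summed copies, a fit with the other set of libraries (6 or 12), and each library left out. Same-numbered libraries deviated together from their group means (r over genes) in heat shock in WT (0.31, 0.12 and 0.36) and between the strains at 35°C (0.49, 0.56 and 0.34), so the numbers were taken to pair the libraries there. In WT the same-numbered libraries also share a lane, lane 3 for replicate 1 and lane 8 for replicates 2 and 3. The part of the lane there cannot be told apart. The pairing comes from the data, as no label states a shared batch. It was not seen for heat shock in miR-85(n4117) (-0.20, -0.34 and 0.41) or between the strains at 20°C (0.10, -0.19 and 0.04).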

Additional observations from a re-analysis of the deposited data

How the results depend on the processing

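The count of members called upon heat shock was 4 of 6 in both strains under the alternatives that keep the 6 genes apart. When the copies were summed it was 4 of the 4 units left. The calls of duplicated genes, apart or summed, rest on 0 counts in every 20°C library and so could hardly change. The unchanged count therefore says something of the first pair only, which was counted at both temperatures. Between the strains at 35°C the count of members called was 0 under the alternatives run. Between the strains at 20°C the count of 0 became 2 with DESeq2, and it ranged from 0 to 1 when 1 library was left out. For the interaction it ranged from 0 to 2. The replicate block left each count of members where it was, with a difference at 20°C of 3.52 for hsp-16.2 and 3.26 for hsp-16.41 (unadjusted p = 0.0523 and 0.0448, edgeR). With the lane as a covariate the differences at 20°C were 3.12 and 3.22 (adjusted p = 0.952 for both, edgeR). All mutant libraries were in lane 3, so that fit sets them against WT replicate 1 alone. The parts of lane and strain are thus not fully told apart. The small differences at 35°C changed sign for hsp-16.48 with the lane as a covariate (-0.15) and in lane 3 only (-0.16), and for hsp-16.49 under the same settings (-0.24 and -0.26). With 1 library left out they ran from -0.10 to 0.49 for hsp-16.48, from -0.66 to 0.34 for hsp-16.49 and from -0.14 to 0.053 for hsp-16.2. For the interaction they ran from -0.10 to 0.46 for hsp-16.48 and from -0.66 to 0.34 for hsp-16.49, which was -0.0031 with the lane as a covariate. The cause was not tested. Over all genes the strains differed at 20°C in 8 calls, beside 135 with DESeq2, 64 without a filter, 2 with the block, 2 with the lane and 0 in lane 3 only (1 to 11 with 1 library left out). At 35°C they differed in 3 calls, beside 11 with DESeq2, 8 without a filter, 6 in the fit of all 12 libraries and 0 with the lane or in lane 3 only (0 to 1 with 1 library left out). The interaction gave 0 calls, beside 1 with DESeq2 and 0 to 4 with 1 library left out. Calls upon heat shock went from 1701 to as few as 1106 in WT (without replicate 2 at 35°C, and 1119 without replicate 2 at 20°C) and from 1141 to 716 in miR-85(n4117) without replicate 2 at 20°C and 726 without replicate 3. The comparisons within a single lane were chosen after seeing the data. For the duplicated genes both depth, as 0 counts at 20°C allow up to 3, and the dropped shared reads limit the values.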

Other observations

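At 20°C alone, over 6 libraries and by a ranking added after values had been seen, the protein-coding genes nearest in profile to hsp-16.2 were hsp-70 (root-mean-square difference 0.432), F44E5.5 (0.690), nhr-17 (0.785), F44E5.4 (0.832) and lact-6 (0.917), where the median of 15287 genes was 2.14. nhr-17 encodes a nuclear hormone receptor and had 169, 155 and 58 counts in WT. In the mutant it had 380, 1449 and 1621 counts in replicates 1, 2 and 3, or 4.31 to 5.54 CPM in WT and 8.04, 43.3 and 43.9 CPM in the mutant. lact-6, named for a beta-lactamase domain, had 6, 6 and 4 counts in WT and 40, 134 and 91 in the mutant. Both were thus highest in the same 2 mutant libraries as hsp-16.2. At 35°C nhr-17 stood at 20.9, 39.3 and 37.5 CPM in WT, above all 3 WT libraries at 20°C, and at 19.1, 21.9 and 28.5 CPM in the mutant, above its replicate 1 at 20°C and below its replicates 2 and 3. lact-6 had 9, 10 and 10 counts in WT and 13, 23 and 13 in the mutant at 35°C.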
